A study of Mus musculus with 31 samples.

Results

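The comparison asked whether whole spleens with tumors departed from their own controls in the same way in mice of 2 Cre drivers. It used all 12 whole spleen libraries of the CD4-Cre and CD4-CreERT2 sets, of 31 libraries in the series, with 3 libraries in each of 4 groups. The CD4-Cre tumor spleens carried the genotype label CD4-CreVav1Myo1f fl/wt and came from mice VM388, VM58 and VM98, and their controls were normal spleens labelled CD4-Cre(WT), from VM211, VM216 and VM645. The name VM645 also stands on a sorted CD4+ library labelled as tumor in this set, and each library was grouped by its own label. The CD4-CreERT2 tumor spleens carried the label CD4-CreERT2Vav1Myo1f fl/wt and came from VM231, VM236 and VM294, and their controls were normal spleens labelled CD4-CreERT2 (WT), A1, A2 and A3. The control labels name a Cre driver beside WT and do not say whether these mice carried Cre. Every mouse had the strain label C57B/6. Ages, and the timing of any inducer given to CD4-CreERT2 mice, are not given in the sources used here. The labels do not say that each library is a separate animal, but each title within a group carries its own mouse name, so each p-value here sets a difference against the spread among libraries.

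The value reported throughout is the tumor effect (tumor minus control, log2) in CD4-Cre spleens minus the tumor effect in CD4-CreERT2 spleens, called the interaction. A negative interaction means that tumor spleens stood lower against their own controls in the CD4-Cre set than in the CD4-CreERT2 set. The sets differ in driver, in table layout and possibly in much else, so no library was set against one of the other set. Levels are in CPM, counts scaled to the library's total after TMM normalisation.

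Vav1 switches on Rac GTPases by exchanging their bound nucleotide when antigen receptors are engaged, and Myo1f is an unconventional myosin found in blood cells. Cre under the Cd4 promoter acts in developing thymocytes and their progeny, whereas CreERT2 is held inactive until it binds tamoxifen, so that recombination can be started later. The spleen filters blood through the red pulp, where macrophages engulf aged red cells and recycle their iron. Around the white pulp of B and T cells, the mouse red pulp also holds monocytes, neutrophils, erythroid precursors and megakaryocytes. In bulk spleen RNA, fewer cells of a type and less RNA per cell cannot be told apart.

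The 12 libraries held 24772099 to 36985628 gene counts, and 17784 of 48211 shared gene symbols had enough counts to test. Tumor spleens of both sets varied more among themselves than controls did: over the 9233 genes of mean log2 CPM of at least 3, the median SD of log2 CPM between libraries was 0.421 in CD4-Cre tumors against 0.155 in their controls, and 0.864 in CD4-CreERT2 tumors against 0.153 in theirs. VM294 stood apart, with 18368 genes having a count (22131 to 24162 in the others) and 28.2% of its counts in 10 genes, and VM98 stood apart from the other CD4-Cre tumors in neutrophil and erythroid genes. Xist and Ddx3y read VM388, VM211, VM216, VM231 and VM294 as male and the rest, all 3 CD4-CreERT2 controls included, as female, so sex is partly mixed with status. The interaction also moved with gene length, with a Spearman rho of 0.42 over those 9233 genes, as a description across genes that are not independent. T cell markers were present in every library, and the 17 T cell receptor and identity genes summed to 1314 to 3524 CPM in CD4-Cre tumors, 1350 to 2021 CPM in their controls, 1379 to 3879 CPM in CD4-CreERT2 tumors and 2089 to 2762 CPM in their controls.

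The fusion's parent genes were read first, though counts per gene do not tell a fusion transcript from the normal ones. Vav1 had 277, 332 and 337 CPM in CD4-Cre tumors against 201, 202 and 189 CPM in their controls, and 425, 312 and 124 CPM in CD4-CreERT2 tumors against 312, 289 and 325 CPM in theirs. All CD4-Cre tumors lay above their controls, and CD4-CreERT2 tumors lay on both sides of theirs. The interaction of Vav1 was 0.78 (SE 0.54, 95% CI -0.40 to 1.97, edgeR adjusted p = 0.439). Myo1f had 199, 335 and 700 CPM in CD4-Cre tumors against 303, 359 and 343 CPM in their controls, and 900, 410 and 170 CPM in CD4-CreERT2 tumors against 246, 200 and 205 CPM in theirs, with an interaction of -0.89 (SE 0.79, adjusted p = 0.546). Neither gene separated tumors from controls in both sets.

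In tumor spleens of the CD4-Cre set, 8 genes stood lower against controls than they did in the CD4-CreERT2 set, among them the cytokine gene Il1b, the lysozyme gene Lyz1 and the phosphatase gene Dusp1. In the edgeR quasi-likelihood test with Benjamini-Hochberg adjustment over all 17784 genes, these 8 passed the interaction with a lower value in CD4-Cre (0.045% of genes tested) and 0 with a higher value (0%). The other 5 were Steap4, Gm6517, Arg2, Ifit1bl2 and Clec1b. At an unadjusted p under 0.05, 1348 genes were higher (7.58%) and 2024 lower (11.4%). By DESeq2 356 were higher and 780 lower. Taken alone, the CD4-Cre effect had 0 genes higher (0%; 782 unadjusted, 95 by DESeq2) and 2 lower (0.0112%), Il1b and Gm6517, while the CD4-CreERT2 effect had 125 higher (0.703%) and 48 lower (0.27%). The number of genes passing both effects was 0 in the same direction and 0 in opposite directions, against 35 and 39 by DESeq2. With a sex term in the fit the interaction had 0 genes in either direction (790 higher and 1034 lower unadjusted), and with each set fitted alone neither tumor effect had a gene that passed. What is said below to have risen or fallen therefore rests on the spread shared by all 4 groups.

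These counts rested heavily on single libraries. The interaction had 114 higher (0.614%) and 571 lower genes (3.07%) without VM98, 628 (3.38%) and 755 (4.06%) without VM231, 9 and 71 without VM236, and 3 and 15 without VM294. It had 0 higher and 0 lower genes without VM388 or without any 1 of A1, A2 and A3, and 0 higher and 1 lower without VM58 or VM216. Without VM645, whose name a tumor library shares, the interaction had 0 higher and 9 lower genes, and the CD4-Cre effect 0 lower. Without VM98 and VM294 together, a choice made after seeing that both stood apart, 579 genes were higher (3.14%) and 1007 lower (5.45%), among them all 8 named above. The CD4-CreERT2 effect had 0 genes in either direction without any 1 of the 6 controls of both sets. The interaction of all 8 genes was negative under every alternative tried, except that Gm6517 was not tested at a mean log2 CPM of at least 1.

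Across all genes the tumor effects of the sets had a Spearman rho of -0.0021 over 17784 genes and of -0.157 over the 9233 better counted ones, given as a description across genes measured in the same libraries. In 238 genes (1.34%) every CD4-Cre tumor lay below its controls and every CD4-CreERT2 tumor above its controls, and in 398 genes (2.24%) the reverse held. In 166 genes all tumors of both sets lay above their own controls and in 293 genes all lay below. The precision was low: the median 95% interval of an interaction reached 1.83 log2 units either side, and 290 genes had an interval wholly within 1 log2 unit of 0.

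**Figure D1:**
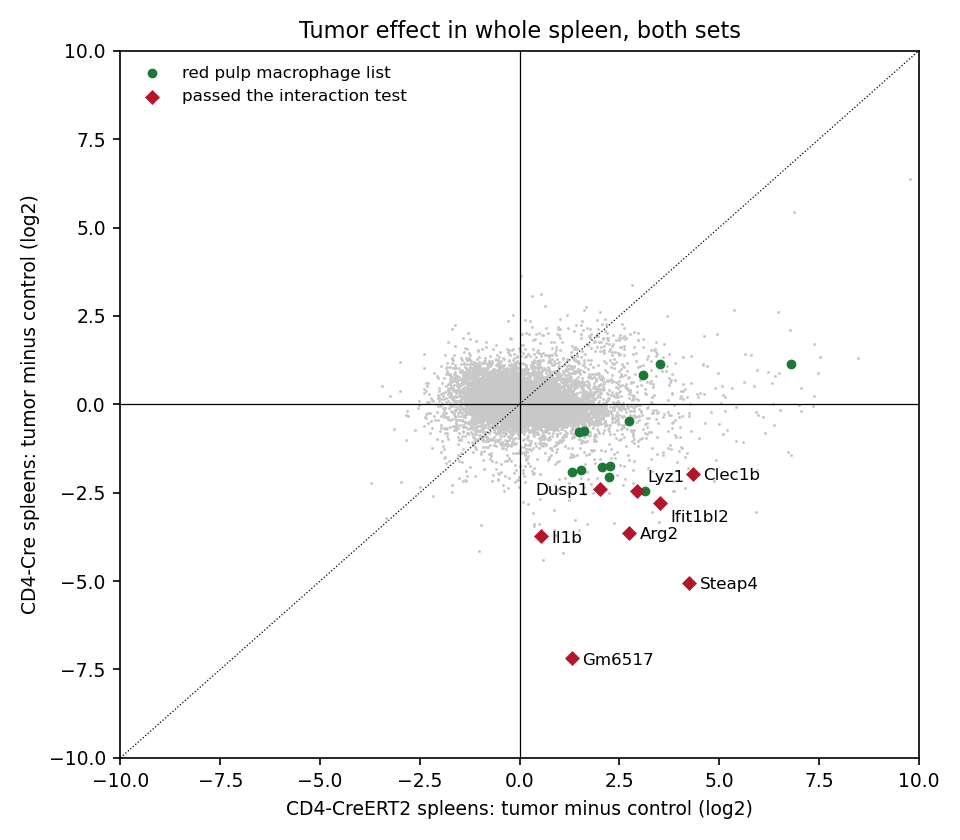
Tumor effect in CD4-Cre spleens (y axis, tumor minus control, log2) against that in CD4-CreERT2 spleens (x axis, log2), where each grey point is a gene of mean log2 CPM of at least 3, green points are the 12 red pulp macrophage genes and red diamonds the 8 genes that passed the interaction. All 8 diamonds lie in the lower right, below 0 for CD4-Cre and above 0 for CD4-CreERT2, and 9 of 12 green points lie there too.

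Il1b encodes the inflammatory cytokine interleukin-1 beta, made mainly by monocytes, macrophages and neutrophils. It had 16.4, 41.8 and 15.6 CPM in CD4-Cre tumors against 340, 384 and 261 CPM in their controls. In the other set it had 40.3, 54.8 and 49.5 CPM in CD4-CreERT2 tumors against 32.2, 32.8 and 35.3 CPM in theirs. All CD4-Cre tumors were far below their controls and all CD4-CreERT2 tumors slightly above theirs. The CD4-Cre effect was -3.74 (SE 0.42, adjusted p = 0.0199), the CD4-CreERT2 effect 0.53 (SE 0.38, adjusted p = 0.39) and the interaction -4.27 (SE 0.55, 95% CI -5.47 to -3.06, adjusted p = 0.0136). Besides Gm6517, Il1b was the only gene that fell in CD4-Cre tumors.

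Lyz1 encodes one of the mouse lysozymes, which break bacterial cell walls. It had 14.7, 15.8 and 23.7 CPM in CD4-Cre tumors against 145, 78.1 and 71.3 CPM in their controls, and 121, 43.1 and 141 CPM in CD4-CreERT2 tumors against 13.8, 13 and 12.8 CPM in theirs. The groups did not overlap within either set, and the directions were opposite. Lyz1 rose in CD4-CreERT2 tumors (2.95, SE 0.46, adjusted p = 0.0322), its CD4-Cre effect of -2.44 missed the threshold (adjusted p = 0.197), and the interaction was -5.39 (SE 0.64, 95% CI -6.79 to -3.99, adjusted p = 0.0136). Lyz1 is a near copy of Lyz2, so reads shared between them make its level uncertain.

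Dusp1 encodes a phosphatase that switches off stress-activated MAP kinases and is itself induced within minutes of stress. It had 27.9, 80.3 and 76.8 CPM in CD4-Cre tumors against 368, 367 and 243 CPM in their controls, and 197, 329 and 348 CPM in CD4-CreERT2 tumors against 78.5, 53.6 and 86.2 CPM in theirs. Again every tumor lay below its controls in CD4-Cre and above them in CD4-CreERT2. The interaction was -4.40 (SE 0.62, 95% CI -5.75 to -3.06, adjusted p = 0.0259). The 12 early response and heat shock genes that can also be induced by tissue handling had a median interaction of -1.38, and of these Fos reached -4.07 (SE 0.90, adjusted p = 0.102). In CPM their summed level was 665.9 to 916.1 in CD4-Cre tumors against 905.7 to 1936 in their controls, and 568.7 to 1350 in CD4-CreERT2 tumors against 636.7 to 1387 in theirs. Their part in the Dusp1 difference was not tested.

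The promoters of these 3 genes, the ones named by the rule on level, are shown because the genes moved together. RefSeq gives 250 bases before to 50 after each gene's start on build GRCm38.p6, all 3 on the minus strand, printed 5′ to 3′ with a match to a motif in capitals.
Il1b, chr2:129371090-129371389: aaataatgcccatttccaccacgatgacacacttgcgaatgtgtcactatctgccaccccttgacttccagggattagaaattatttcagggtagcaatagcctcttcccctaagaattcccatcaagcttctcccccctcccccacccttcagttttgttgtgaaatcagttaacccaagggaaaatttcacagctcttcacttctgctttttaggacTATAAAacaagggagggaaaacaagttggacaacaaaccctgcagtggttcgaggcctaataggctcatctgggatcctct
Lyz1, chr10:117292819-117293118: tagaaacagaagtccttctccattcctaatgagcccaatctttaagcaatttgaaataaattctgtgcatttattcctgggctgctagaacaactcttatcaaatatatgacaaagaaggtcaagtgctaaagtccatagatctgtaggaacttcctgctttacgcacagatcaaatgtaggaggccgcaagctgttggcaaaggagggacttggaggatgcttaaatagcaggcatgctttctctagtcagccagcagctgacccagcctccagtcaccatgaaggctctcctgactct
Dusp1, chr17:26508423-26508722: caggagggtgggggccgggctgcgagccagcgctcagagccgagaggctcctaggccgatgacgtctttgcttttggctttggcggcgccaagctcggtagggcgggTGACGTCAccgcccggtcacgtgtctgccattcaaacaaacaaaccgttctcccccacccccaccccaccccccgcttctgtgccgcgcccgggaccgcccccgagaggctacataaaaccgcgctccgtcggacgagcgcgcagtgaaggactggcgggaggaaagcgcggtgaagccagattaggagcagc
The motifs searched on both strands were TATAAA (the TATA box), TGACGTCA (the cAMP response element) and GAGGAAGT (a core bound by PU.1), which do not overlap one another here. TATAAA lay at position -31 from the start in Il1b, and 13.6% of 32851 promoters of this length hold it. TGACGTCA lay at position -143 in Dusp1, and 1.79% hold it. Lyz1 had none of the 3 motifs, and GAGGAAGT, held by 3.2% of promoters, was in none of these 3 sequences. Of the 8 genes, 6 had a promoter in the RefSeq table, and the other 3 of these held a motif too. Ifit1bl2 held TATAAA at -30 and GAGGAAGT at -123, Clec1b held TATAAA at -195 and, on the opposite strand, at -87, and Steap4 held it at -215 on the opposite strand. A match is a description of letters, not of binding.

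The other 5 genes lie below a mean log2 CPM of 3 and were named after their values were seen. Steap4, a metalloreductase of iron and copper that inflammation induces, had 0.655, 0.586 and 1.23 CPM in CD4-Cre tumors against 15.4, 53.5 and 12.7 CPM in their controls, and 20.2, 17.6 and 70.7 CPM in CD4-CreERT2 tumors against 1.73, 2.29 and 1.66 CPM in theirs. Its interaction of -9.30 (SE 1.05, 95% CI -11.58 to -7.01, adjusted p = 0.0136) combined a CD4-Cre effect of -5.04 (adjusted p = 0.0859) with a rise of 4.25 in CD4-CreERT2 tumors (adjusted p = 0.0382). Arg2, the mitochondrial arginase, had 0.759, 1.17 and 2.79 CPM in CD4-Cre tumors against 16.2, 30.7 and 12.1 CPM in their controls, and 24.7, 12.1 and 26.4 CPM in CD4-CreERT2 tumors against 3.39, 3.66 and 2.33 CPM in theirs, for an interaction of -6.39 (SE 0.81). In both genes every tumor lay on opposite sides of its controls in the 2 sets.

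Clec1b encodes CLEC-2, the receptor by which platelets and some myeloid cells bind podoplanin. It had 2.83, 1.80 and 1.62 CPM in CD4-Cre tumors against 7.28, 11.6 and 5.68 CPM in their controls, and 10.6, 23.9 and 34.9 CPM in CD4-CreERT2 tumors against 0.754, 1.05 and 1.62 CPM in theirs, for an interaction of -6.31 (SE 0.76). Ifit1bl2, of the interferon-induced IFIT family, had 1, 1.42 and 1.26 CPM in CD4-Cre tumors against 5.16, 8.30 and 12.2 CPM in their controls, and 33.0, 7.60 and 16.9 CPM in CD4-CreERT2 tumors against 2.23, 1.49 and 1.27 CPM in theirs, for an interaction of -6.32 (SE 0.81). Both rose in CD4-CreERT2 tumors, Clec1b by 4.34 (adjusted p = 0.0259) and Ifit1bl2 by 3.52 (adjusted p = 0.0382). Gm6517, a gene model of no stated function, had 2 counts over all 3 CD4-Cre tumors against 324 over their controls, a control level 159 times the tumor level with an exact counting interval of 43.7 to 1320 times. In the other set it had 1.67, 1.82 and 4.998 CPM in CD4-CreERT2 tumors against 1.13, 0.954 and 1.31 CPM in theirs, which did not overlap. Its fitted interaction of -8.50 (adjusted p = 0.0136) depends on the small count added in the fit.

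**Figure D2:**
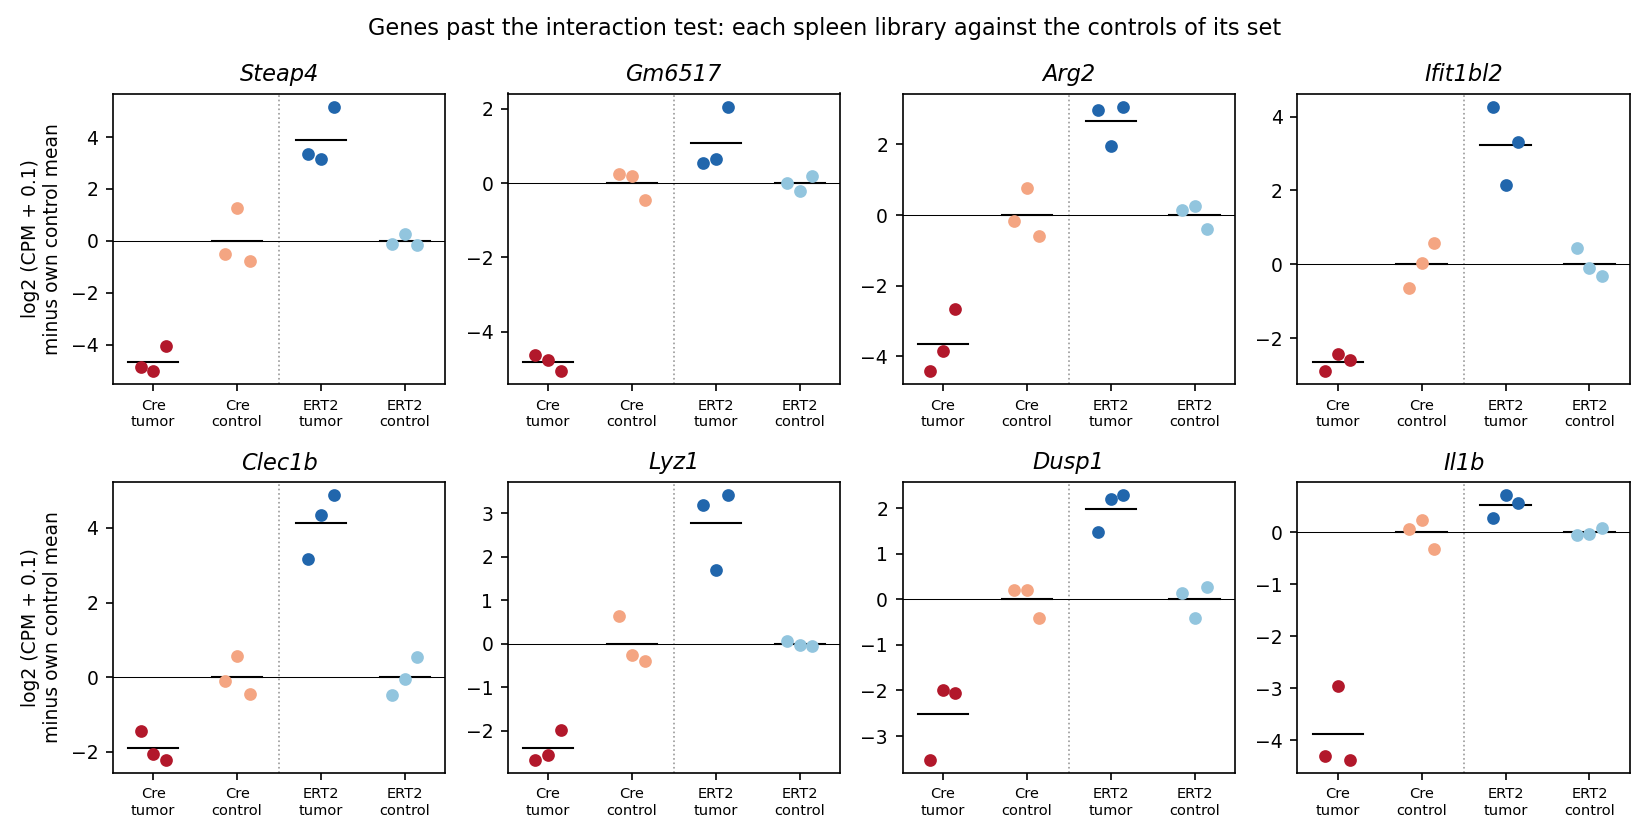
Level of the 8 genes that passed the interaction in each spleen library, as log2 (CPM + 0.1) minus the mean of the controls of the same set (y axis), with tumors and controls of CD4-Cre on the left and of CD4-CreERT2 on the right of each panel. Points are libraries and bars are group means of 3 libraries. CD4-Cre tumors lie below 0 and CD4-CreERT2 tumors above 0 in all 8 panels, with the smallest rise in Il1b.

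No gene passed with a higher tumor effect in CD4-Cre, and 5 of those of lowest p among genes of mean log2 CPM of at least 3 are given here. Pde3b, a phosphodiesterase that lowers cAMP, had 42.1, 82.1 and 52.3 CPM in CD4-Cre tumors against 37.2, 30.0 and 30.0 CPM in their controls, and 24.7, 26.3 and 27.1 CPM in CD4-CreERT2 tumors against 82.0, 80.1 and 98.5 CPM in theirs. All CD4-Cre tumors were above and all CD4-CreERT2 tumors below their controls, and the interaction was 2.601 (SE 0.41, 95% CI 1.70 to 3.50, adjusted p = 0.0566). Its level fell by 1.74 log2 units in CD4-CreERT2 tumors (adjusted p = 0.0382). Itpkb, a kinase of inositol trisphosphate, reached 2.88 (adjusted p = 0.0652), Lrrc45 2.44 (adjusted p = 0.0786), Gon4l 2.14 (adjusted p = 0.087) and the dynein heavy chain Dync1h1 1.66 (adjusted p = 0.087). The groups did not overlap within either set for any of these 5 genes.

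The interaction ran with gene length, taken from the CD4-CreERT2 tables. In the shortest of 10 bins of near equal size (57 to 1513 bases) the median interaction was -1.28, from a CD4-Cre median of -0.29 and a CD4-CreERT2 median of 0.91, and in the longest bin (9311 to 123179 bases) it was 0.67, from 0.16 and -0.47. Genes lower at an unadjusted p under 0.05 had a median length of 2141 bases and genes higher 6848.5 bases, against 4143 bases over all 9233. The distance of a tumor library from its control mean had a rho with length of 0.103, 0.327 and 0.189 in CD4-Cre and of -0.189, -0.454 and -0.27 in CD4-CreERT2, while single control libraries ran from -0.268 to 0.23. With each library's length trend removed, an alternative chosen after seeing this, the rho was 0.014, and 1 gene was higher and 7 lower, all 7 among the 8 named. Il1b was the one that no longer passed.

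**Figure D3:**
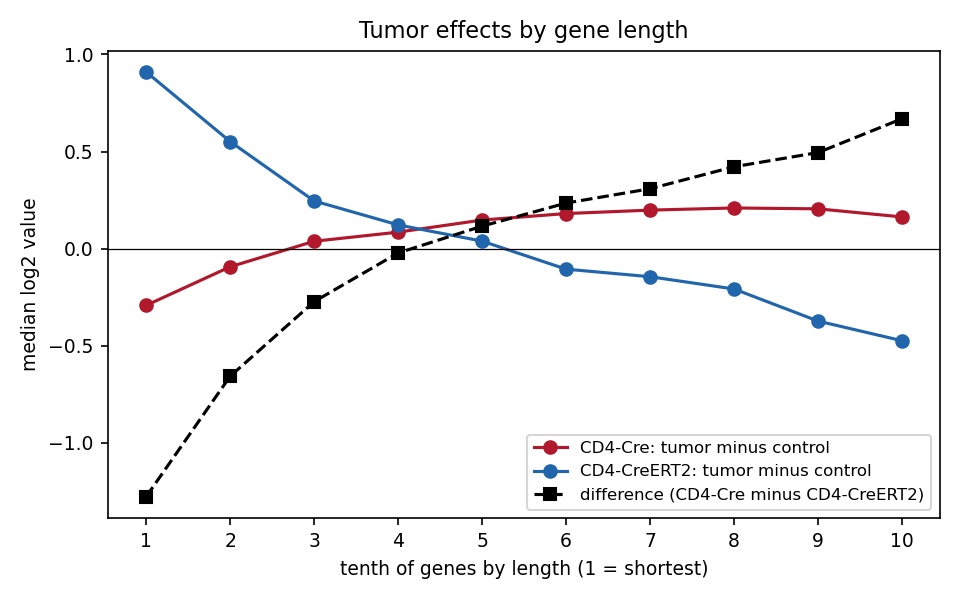
Median log2 tumor effect of CD4-Cre spleens (red), of CD4-CreERT2 spleens (blue) and their difference (black, dashed) in 10 bins of near equal size, of 9233 genes ordered by length (x axis, shortest at 1). The blue line runs downward and the black line upward, from -1.28 in the shortest bin to 0.67 in the longest.

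Red pulp macrophage genes, taken as a list, averaged below controls in CD4-Cre tumors and above controls in CD4-CreERT2 tumors. All 12 of the 12 listed genes had a negative interaction, 12 of 12 at an unadjusted p under 0.05 (11.4% of all genes), and 0 passed the adjusted threshold. The median interaction was -3.32, against -0.0036 over all genes, from medians of -1.26 in CD4-Cre and 2.26 in CD4-CreERT2, against 0.07 and 0.05 over all genes. The mean log2 CPM of the list lay 1.45, 1.14 and 0.66 below the control mean in CD4-Cre tumors VM388, VM58 and VM98, and 1.84, 2.88 and 2.27 above it in CD4-CreERT2 tumors VM231, VM236 and VM294. Thus all 6 tumors took the direction of their set. Summed over the list, levels were 633.9 to 795.2 CPM in CD4-Cre tumors against 1210 to 2488 CPM in their controls, and 768.2 to 1933 CPM in CD4-CreERT2 tumors against 178.1 to 315.6 CPM in theirs. The count of list members that passed was 6 lower without VM98 (3.07% of all genes), 8 without VM231 (4.06%) and 10 without VM98 and VM294 (5.45%). VM98 and VM231 were the tumors of their sets nearest to controls on this list, so these counts are no separate support. Without VM388 or any 1 of A1, A2 and A3, or with a sex term, 0 of all genes passed.

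Within this list, Spic, the transcription factor that red pulp macrophages require, had 20.6, 35.4 and 23.4 CPM in CD4-Cre tumors against 70.0, 132 and 63.1 CPM in their controls, and 36.3, 84.6 and 141 CPM in CD4-CreERT2 tumors against 19.2, 16.8 and 18.3 CPM in theirs. The groups did not overlap in either set, Spic rose in CD4-CreERT2 tumors (2.27, adjusted p = 0.0496), and the interaction was -4.01 (SE 0.67, 95% CI -5.47 to -2.56, adjusted p = 0.0596). Vcam1, an adhesion molecule of these macrophages, had an interaction of -4.30 (SE 0.79, adjusted p = 0.0652). The iron exporter ferroportin, Slc40a1, had 10, 11.9 and 154 CPM in CD4-Cre tumors against 236, 488 and 239 CPM in their controls, and 325, 924 and 140 CPM in CD4-CreERT2 tumors against 60.0, 41.8 and 56.3 CPM in theirs. VM98 lay closest to its controls and VM294 closest to its own, and the interaction of Slc40a1 was -5.59 (SE 1.40, adjusted p = 0.124). Hmox1, which opens haem to release its iron, reached -3.86 (SE 0.84, adjusted p = 0.0939). The receptor for haemoglobin and haptoglobin, Cd163, reached -3.41 (adjusted p = 0.114), and the phagocytic receptors Timd4 and Axl -2.39 (adjusted p = 0.169) and -2.37 (adjusted p = 0.182). In CD4-CreERT2 tumors Trf, which encodes transferrin, rose by 2.74 (adjusted p = 0.0496) and Timd4 by 3.52 (adjusted p = 0.0382).

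Among the 20 general monocyte and macrophage genes, 19 had a negative interaction, with a median of -2.94. Of the 20, 15 were lower at an unadjusted p under 0.05 (11.4% of all genes) and 0 passed the adjusted threshold. The CD4-Cre median was -0.11 and the CD4-CreERT2 median 2.91, so these genes differed from the red pulp list in lying near their controls in CD4-Cre spleens. The list's mean log2 CPM lay 0.33, 0.26 and 0.01 below the control mean in the CD4-Cre tumors, and 2.76, 1.99 and 2.21 above it in the CD4-CreERT2 tumors. The CD4-Cre tumors lay within the spread of their 3 controls (-0.35 to 0.39 about the mean), and the CD4-CreERT2 tumors lay outside that of theirs. In CD4-CreERT2 tumors 9 of 20 rose and 0 fell, with 0.703% of all genes rising there. The Fc receptor Fcgr3 had 84.2, 84.2 and 272 CPM in CD4-Cre tumors against 186, 303 and 259 CPM in their controls, and 439, 294 and 962 CPM in CD4-CreERT2 tumors against 47.6, 39.6 and 41.3 CPM in theirs. VM98 alone among CD4-Cre tumors lay within its controls, and every CD4-CreERT2 tumor lay above its own. Fcgr3 rose by 3.72 in CD4-CreERT2 tumors (SE 0.58, adjusted p = 0.0322), and its interaction was -4.49 (SE 0.78, adjusted p = 0.0596). Cd14, the co-receptor for endotoxin, had an interaction of -4.56 (adjusted p = 0.0596), and the endosomal protein Cd68 of -3.64 (SE 0.75, adjusted p = 0.087). The complement subunit genes C1qb and C1qc rose in CD4-CreERT2 tumors by 3.15 (adjusted p = 0.0496) and 3.33 (adjusted p = 0.048), with interactions of -2.84 and -3.29. Csf1r, the receptor for the macrophage growth factor, had an interaction of -0.94 (SE 0.76, adjusted p = 0.503), so not every macrophage gene lay as far from 0.

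Of the interleukin-1 and inflammasome list, 9 of 10 genes were tested and 8 had a negative interaction. Of these, 7 were at an unadjusted p under 0.05 (11.4% of all genes), and Il1b passed. The median was -2.62, from -0.59 in CD4-Cre and 1.26 in CD4-CreERT2. Il1a, the other interleukin-1 agonist, had 1.90, 5 and 0.719 CPM in CD4-Cre tumors against 2.71, 4.10 and 2.29 CPM in their controls, and 6.27, 5.41 and 6.27 CPM in CD4-CreERT2 tumors against 0.565, 0.191 and 0.176 CPM in theirs. It rose by 4.24 in CD4-CreERT2 tumors (adjusted p = 0.0474), and the interaction was -4.50 (adjusted p = 0.102). Il1rn, which encodes the receptor antagonist that blocks interleukin-1, rose by 3.35 in CD4-CreERT2 tumors (adjusted p = 0.0479) with an interaction of -2.85 (adjusted p = 0.156). The signalling receptor Il1r1 was the exception, at 2.02 (adjusted p = 0.303).

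Alternatively activated macrophage genes, which interleukin-4 and interleukin-13 induce, had a median interaction of -2.81 over 12 genes, from 0.65 in CD4-Cre and 3.54 in CD4-CreERT2. Of these, 11 were negative, 6 at an unadjusted p under 0.05 (11.4% of all genes), and 0 passed. Mrc1, the mannose receptor, rose by 3.03 in CD4-CreERT2 tumors (adjusted p = 0.0496), and the scavenger receptor Msr1 by 4.05 (adjusted p = 0.048) with 33.1, 24.7 and 252 CPM in tumors against 6.79, 5.597 and 6.28 CPM in controls. Against them, CD4-Cre effects were -0.21 for Mrc1 and 0.37 for Msr1. Msr1 had 55.4, 50.8 and 88.4 CPM in CD4-Cre tumors against 33.8, 71.3 and 45.9 CPM in their controls, which overlapped. Mgl2, a macrophage lectin, lay above controls in all 6 tumors, with effects of 1.91 in CD4-Cre (adjusted p = 0.582) and 4.67 in CD4-CreERT2 (adjusted p = 0.0484).

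Neutrophil genes had the lowest median interaction of the 42 lists, -6.28 over 14 genes, and depended on 1 library. All 14 were negative, 11 at an unadjusted p under 0.05 (11.4% of all genes), and 0 passed. The list's mean log2 CPM lay 5.86 and 5.18 below controls in VM388 and VM58 but 1.47 above them in VM98, and 6.95, 2.11 and 5.74 above controls in VM231, VM236 and VM294. S100a8, an alarmin that fills neutrophil cytosol, had 39.5, 36.2 and 13772 CPM in CD4-Cre tumors against 1831, 5277 and 9888 CPM in their controls, and 18094, 488 and 7634 CPM in CD4-CreERT2 tumors against 182, 146 and 85.9 CPM in theirs. VM98 thus lay above its controls where VM388 and VM58 were far below. Without VM98 all 14 genes passed (3.07% of all genes lower) and the median was -12.73. That fit leaves out the CD4-Cre tumor that ran against the direction, so its count is no separate support. With VM231 left out, 3 of 14 passed (4.06% of all genes lower) with a median of -5.10. The chemokine receptor Cxcr2 was among the steadier members, with 6.31, 9.32 and 70.7 CPM in CD4-Cre tumors against 130, 213 and 125 CPM in their controls, and 443, 77.9 and 301 CPM in CD4-CreERT2 tumors against 18.5, 22.2 and 16.9 CPM in theirs. Its groups did not overlap in either set, and its interaction was -6.27 (SE 1.22, adjusted p = 0.0733).

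Erythroid genes had a median interaction of -3.07 with 12 of 13 tested genes negative, of which 0 passed and 0 reached an unadjusted p under 0.05. Their mean log2 CPM lay 1.35 and 2.23 below controls in VM388 and VM58, 2.96 above them in VM98, and 3.10, 5.36 and 1.81 above controls in the CD4-CreERT2 tumors. The adult alpha globin Hba-a1 had 0.655, 0.203 and 110 CPM in CD4-Cre tumors against 2.31, 28.3 and 11.4 CPM in their controls, and 112, 622 and 130 CPM in CD4-CreERT2 tumors against 5.56, 2.70 and 7.17 CPM in theirs. Its near copy Hba-a2 makes the split between them uncertain. The 5 megakaryocyte and platelet genes tested, of 6, had a median of -4.11, with VM98 again above its controls (1.28) where VM388 and VM58 lay 2.19 and 2.41 below. Without VM98 and VM294, 8 of 13 erythroid and 5 of 5 megakaryocyte genes passed, lower in CD4-Cre (5.45% of all genes). That choice took out the CD4-Cre tumor that lay above its controls in both lists. These counts are therefore no separate support for the direction.

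**Figure D4:**
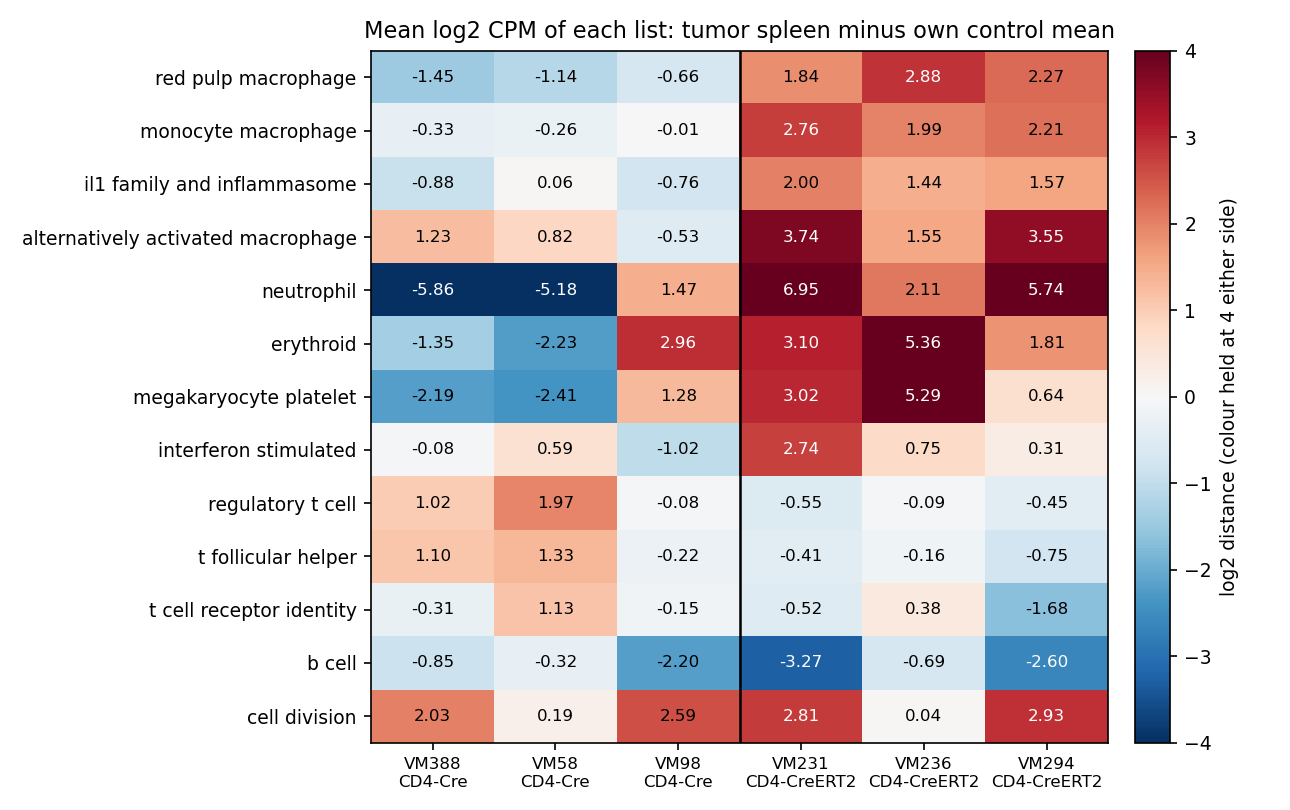
Mean log2 CPM of each gene list in each tumor spleen minus the mean of the controls of its set, in log2 units (colour and printed value; colour is held at 4 either side), with CD4-Cre tumors left of the black line and CD4-CreERT2 tumors right of it. Red pulp and monocyte macrophage rows are negative in all 3 CD4-Cre columns and positive in all 3 CD4-CreERT2 columns, whereas VM98 leaves its set in the neutrophil, erythroid and megakaryocyte rows.

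Of 8 regulatory T cell genes, 7 had a positive interaction, 5 at an unadjusted p under 0.05 (7.58% of all genes), 1 was lower at that level (Capg, an actin capping protein shared with myeloid cells), and 0 passed. The median was 1.56, from 1.30 in CD4-Cre and -0.31 in CD4-CreERT2. Foxp3, the factor that defines regulatory T cells, had 28.7, 124 and 14.5 CPM in CD4-Cre tumors against 11.6, 11.6 and 12.4 CPM in their controls, and 11.7, 10.1 and 2.61 CPM in CD4-CreERT2 tumors against 22.1, 24.5 and 28.7 CPM in theirs. The groups did not overlap in either set, and the interaction was 3.85 (SE 0.99, 95% CI 1.69 to 6.02, adjusted p = 0.134). Lrrc32, which presents latent TGF-beta on these cells, had 3.94 (SE 1.07, adjusted p = 0.146) and the inhibitory receptor Ctla4 1.40 (adjusted p = 0.254). VM98 was the lowest CD4-Cre tumor for each of these 3 genes. Without VM98 and VM294, 5 of 8 genes passed higher (3.14% of all genes). That choice, made after seeing the data, took out the CD4-Cre tumor whose list mean lay nearest to that of its controls. The count of 5 is therefore no separate support for the direction.

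The follicular helper list had a median interaction of 1.49, with 8 of 10 genes positive and 0 passing, led by Tox2 at 3.59 (SE 1.44, adjusted p = 0.221). T cell receptor and identity genes had a median interaction of 0.57, with 14 of 17 above 0 and 0 passing. This median was -0.32 with a sex term in the fit, 0.04 without VM58 and 1.34 without VM236. Cd4 itself had 77.4, 202 and 57.4 CPM in CD4-Cre tumors against 51.7, 50.7 and 55.6 CPM in their controls, and 119, 61.4 and 11.3 CPM in CD4-CreERT2 tumors against 105, 93.4 and 126 CPM in theirs, for an interaction of 1.85 (SE 0.92, adjusted p = 0.296). Gata3, the T helper 2 factor, had 28.8, 41.0 and 30.3 CPM in CD4-Cre tumors against 17.6, 13.7 and 13.7 CPM in their controls, and 22.4, 20.9 and 3.06 CPM in CD4-CreERT2 tumors against 23.3, 22.1 and 21.4 CPM in theirs. VM294 was far below its controls where VM231 and VM236 lay close to theirs, and the interaction of Gata3 was 1.68 (SE 0.76, 95% CI 0.03 to 3.33, adjusted p = 0.258). The T helper 2 list had median tumor effects of 1.80 in CD4-Cre and 1.19 in CD4-CreERT2. Its mean log2 CPM lay 1.42, 1.99 and 0.88 above controls in the CD4-Cre tumors, and at 1.79, 0.29 and -0.07 against controls in VM231, VM236 and VM294, so VM231 alone stood clearly above its controls in that set. The list's median interaction was 0.46, and -0.20 without VM58.

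Genes of Rac signalling, the pathway that Vav1 serves, had a median interaction of -0.22 over 12 genes, of which 0 passed. This median was 0.28 without VM231, 0.01 without VM388 and -0.61 without VM98 and VM294, so its direction was not settled. The exchange factors Vav2 (2.23, SE 0.70, adjusted p = 0.17) and Dock2 (1.49, SE 0.57, adjusted p = 0.209) stood above 0. The Rac effector kinase Pak1 (-2.04, SE 0.79, adjusted p = 0.211) and the inhibitor Arhgdib (-2.42, SE 0.87, adjusted p = 0.196) stood below it. Rac1 and Rac2 lay at -0.17 and -0.38, with adjusted p of 0.881 and 0.805.

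The 20 cell division genes had median tumor effects above 0 in both sets, 1.83 in CD4-Cre and 2.39 in CD4-CreERT2, and 0 passed either effect. Their mean log2 CPM was within control levels in VM58 (4.821, controls 3.708 to 5.259) and in VM236 (4.375, controls 4.167 to 4.566). Their median interaction was -0.55, with 0 genes passing and 0 at an unadjusted p under 0.05. It ran from -1.14 to -0.05 with 1 library left out, lowest without VM98 and highest without VM58, and was 0.65 by limma-voom, so its direction was not settled. Mki67, the proliferation marker, had 211, 47.9 and 240 CPM in CD4-Cre tumors against 24.2, 50.5 and 48.2 CPM in their controls, and 151, 13.5 and 247 CPM in CD4-CreERT2 tumors against 25.7, 27.1 and 37.3 CPM in theirs. In each set 2 tumors were high, and VM58 and VM236 were within or below control levels. The interaction was -0.17 (SE 1.11, 95% CI -2.59 to 2.25, adjusted p = 0.955), an interval too wide to show that the sets act alike. B cell genes stood below 0 in both sets, with medians of -0.67 and -1.49, and Cr2, a complement receptor of marginal zone and follicular B cells, had effects of -3.22 in CD4-Cre and -3.34 in CD4-CreERT2 (adjusted p = 0.0665). Germinal centre genes had a median interaction of 1.58, and of 0.09 without VM388. Interferon-stimulated genes had a median interaction of -2.12 over 14 genes, and of -0.73 without VM231. Of the 14, 7 were lower at an unadjusted p under 0.05 (11.4% of all genes) and 0 passed. Rsad2, an antiviral enzyme, reached -3.73 (SE 0.78, adjusted p = 0.0887).

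**Figure D5:**
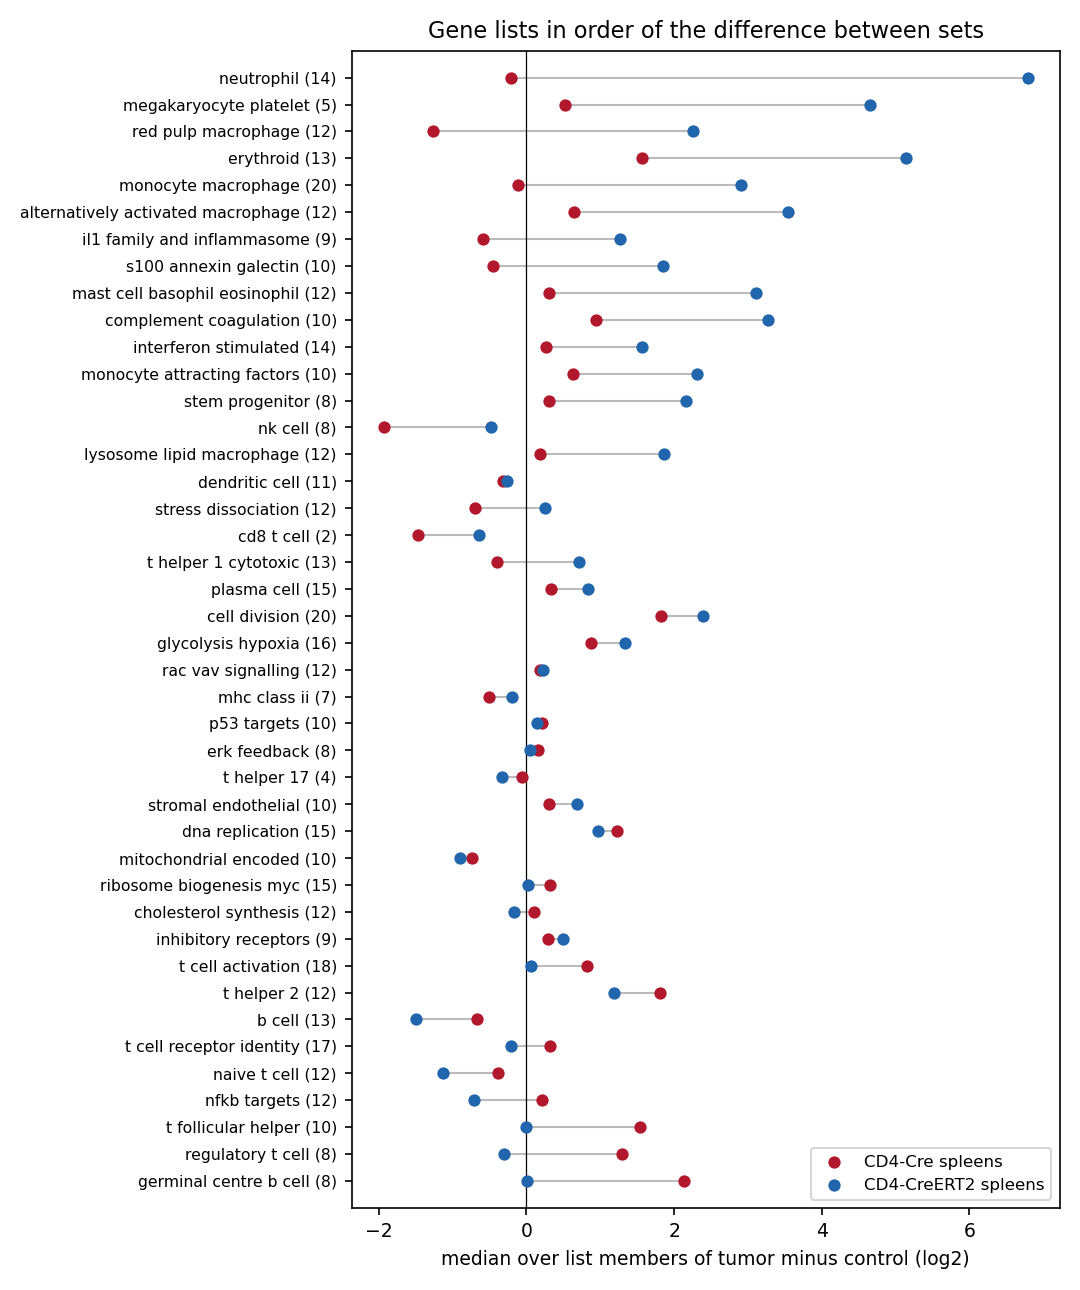
Median tumor effect over the tested members of each gene list (log2, x axis; number of genes in brackets), for CD4-Cre spleens in red and CD4-CreERT2 spleens in blue, with lists ordered by the median interaction of their members. Myeloid lists at the top have the blue point far to the right of the red one (neutrophil -0.21 and 6.79), and germinal centre and regulatory T cell lists at the bottom have it to the left.

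The same interaction was read in the 11 sorted CD4+ libraries of both sets, some from the same mice as the spleens. The CD4-CreERT2 groups there were only VM231 and VM236 against A1 and A3, and VM645 named both a tumor and a control in CD4-Cre. Without VM98, which stood apart with 34546 genes having a count, 0 genes were higher and 5 lower. With all 11 libraries, 0 genes were higher (0%) and 1 lower (0.00511% of 19581 tested), and 442 and 1082 at an unadjusted p under 0.05. That gene, named after its value was seen, was Fpr1, the formyl peptide receptor of neutrophils and monocytes, at -7.49 (SE 0.74, adjusted p = 0.0189). In spleen Fpr1 was at -7.04 (SE 1.08, adjusted p = 0.05, which just missed the threshold). Of the 8 spleen genes, Il1b stood at -3.33 in CD4+ libraries (adjusted p = 0.566), Steap4 at -6.92 (adjusted p = 0.27) and Clec1b at -6.36 (adjusted p = 0.171). Lyz1 stood at -2.87, Dusp1 at -1.37 and Gm6517 at 4.35 (adjusted p = 0.791), and values of Arg2 and Ifit1bl2 are not given here. The red pulp list had a median of -5.30 there and the regulatory T cell list 2.12, against 0.02 over all genes tested. Other myeloid and erythroid lists stood low too: neutrophil at -5.64, erythroid at -4.55, and monocyte and macrophage at -3.34. The B cell and plasma cell lists stood above 0, at 0.56 and 1.12. The red pulp list is of genes best known from macrophages, and what other cells the sorted libraries hold was not tested.

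The share of T cell receptor beta V counts held by the most counted V gene is a rough measure of how far 1 clone dominates. It was 46.5%, 13.3% and 11.5% in CD4-Cre tumors against 16.0%, 11.4% and 9.91% in their controls, and 49.1%, 15.4% and 22.3% in CD4-CreERT2 tumors against 11.1%, 13.2% and 12.5% in theirs. VM388, with Trbv3, and VM231, with Trbv20, stood out. The exact 95% binomial intervals of these 2 shares ran from 44.2% to 48.9% over 1737 counts and from 47.0% to 51.3% over 2098 counts, and cover counting error only. The tumor effect was 11.3 percentage points in CD4-Cre (exact two-sided permutation p = 0.5) and 16.7 in CD4-CreERT2 (exact p = 0.1, the smallest that 3 against 3 can give). Their difference was -5.34 percentage points (exact p = 0.58 over 400 relabellings within sets). For alpha V genes VM231 reached 56.2% with Trav13-1, whereas VM388 had 7.06% with Trav14-2, within its controls (5.16% to 10.9%). The dominance of 1 V gene in VM388 was thus seen in beta V counts only. The alpha V difference between sets was -24.3 percentage points (exact p = 0.04, unadjusted), with shares of 56.2%, 8.59% and 22.1% in CD4-CreERT2 tumors. Relabelling within sets assumes no tumor effect in either set. The p-values of the beta V and alpha V differences therefore do not test whether the tumor effects of both sets are equal. Without VM98 the beta V difference was 0.78 percentage points, and without VM231 it was 4.77.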

How the data were processed

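RNA of whole spleens and sorted CD4+ cells was sequenced after poly(A) selection, per the labels. Gene counts were deposited by the authors; HISAT2 2.1.0, HTSeq 0.5.4 and builds mm10 and GRCm38 are named in the submitters' processing notes, and the annotation release and strand setting are not given in the sources used here. In CD4-Cre tables, rows that name no gene held 32.7% to 39.6% of spleen reads and were left out.

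Tables were joined on 48211 symbols. edgeR 4.0.16 (R 4.3.3) fitted all 12 spleen libraries in 4 groups with TMM scaling, its default filter and quasi-likelihood F-tests, adjusted by Benjamini-Hochberg over 17784 genes at 0.05. CPM values are TMM-scaled. The script was tested on simulated data. DESeq2 1.42.0, limma 3.58.1 and the other settings are alternatives. V gene shares were tested by exact permutation (scipy 1.17.1). Figures used matplotlib 3.10.9.

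Genes named are the targeted and marker genes, the genes past the interaction of mean log2 CPM of at least 3 (up to 12 a direction, or the 6 of lowest p where none passed), and for each of 42 lists the members past the interaction, or otherwise the 2 of highest level. Others were named after their values were seen, as were examples chosen within lists. The members and lists were chosen with earlier results of these data known. Some CD4+ and spleen libraries share a mouse name, and no library was a copy of another. A few results are not reported here because the items they name are withheld.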

Additional observations from a re-analysis of the deposited data

Results flagged for a closer look

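The tumor effect differed between the CD4-Cre and CD4-CreERT2 sets, by a test of the difference, in 8 genes. Their interactions were -9.30 for Steap4, -8.50 for Gm6517, -6.39 for Arg2, -6.32 for Ifit1bl2, -6.31 for Clec1b, -5.39 for Lyz1, -4.40 for Dusp1 and -4.27 for Il1b, on the log2 scale. The driver cannot be told apart from what else differs between the sets. With a sex term, or without VM388 or any 1 of A1, A2 and A3, 0 genes passed.

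In the red pulp macrophage list, with a median interaction of -3.32, and the monocyte and macrophage list, with -2.94, the mean level of every CD4-Cre tumor lay below the mean of its controls and that of every CD4-CreERT2 tumor above it. For the monocyte and macrophage list the CD4-Cre tumors, at -0.33, -0.26 and -0.01, lay within the spread of their own controls, at -0.35 to 0.39. The difference of these list means was not tested.

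Among the 4 sorted CD4+ tumor libraries of the CD4-Cre set, that of VM98 stood apart with 34546 genes having a count. Chance sets apart about 1 in 20 groups by the measure used.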

How the results depend on the processing

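No paired analysis was possible because no mouse name is shared between the spleen groups and the numbers A1 to A3 name control mice only. Among sorted CD4+ libraries, tumor and control of the CD4-Cre set share 1 name, VM645, which is too few for a block. Counts are given as interaction higher and lower, then CD4-Cre higher and lower, then CD4-CreERT2 higher and lower. TMM without receptor, haemoglobin and mitochondrial genes gave 1 and 10, 0 and 2, 75 and 31. TMM within each set gave 2 and 9, 0 and 2, 49 and 30. No filter gave 50 and 396, 24 and 54, 1385 and 251, with 10 genes passing both effects in the same and 14 in opposite directions. A mean log2 CPM of at least 1 gave 2 and 10, 0 and 1, 219 and 129. DESeq2 gave 356 and 780, 95 and 161, 2242 and 897, with 35 and 39 passing both. limma-voom gave 134 and 222, 9 and 4, 378 and 217, with 0 and 1 passing both. A sex term gave 0 and 0, 0 and 3, 0 and 0, and own-set fits gave 0 for each effect. The 2 alternatives chosen after seeing the data were removing the length trend, with 1 and 7, 0 and 0, 28 and 5, and leaving out VM98 and VM294, with 579 and 1007, 276 and 408, 812 and 442, and 21 and 126 passing both. Leaving out 1 library at a time gave 0 to 628 and 0 to 755, 0 to 16 and 0 to 28, 0 to 1644 and 0 to 920, with 0 to 5 and 0 to 12 passing both. RLE scaling kept every count within 1.5 times. The cause of these shifts was not tested.

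The interaction of Mki67 turned positive by limma-voom (1.81), with a sex term (0.885) and without VM98 and VM294 (0.178), and ran from -0.699 to 0.539 with 1 library left out, being 0.391 without VM58, 0.0153 without VM216 and 0.539 without VM294. The beta V share difference ran from -16.7 to 4.77 percentage points with 1 library left out, being 0.779 without VM98 and 4.77 without VM231. With alpha V genes the difference was -24.3 (exact p = 0.04, by relabelling that assumes no tumor effect in either set). Of the named genes' other values, 1389 kept direction and side of the threshold, 216 newly passed and 57 no longer passed. With 3 libraries a group and wide spread between tumors, the median unadjusted 95% interval of an interaction reached 1.83 log2 units either side. The adjusted test asked for more: of the 8 interactions that passed it, the smallest in size was -4.27, of Il1b. V gene shares of VM294 rest on 350 beta counts.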
